A study of Mus musculus with 6 samples.

Results

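Toll-like receptors are membrane proteins with which macrophages recognize products of microbes. Here the 9 receptor genes Tlr1, Tlr2, Tlr3, Tlr4, Tlr6, Tlr7, Tlr8, Tlr9 and Tlr13 and the co-receptor gene Cd14 were followed through RANKL-driven osteoclast differentiation of mouse cells. These genes were chosen by name, with earlier results of these data known. Each of the 10 was found once among the 24940 genes of the deposited table. Bone marrow-derived macrophages (BMMs), grown from the marrow of mice with M-CSF, served as osteoclast precursors. In the -R condition cells were kept for 3 days with M-CSF at 30 ng/mL, in +R they also received RANKL, the cytokine that drives osteoclast formation, at 100 ng/mL, and in R+LE they received RANKL at the same dose together with LE, a methanol extract of the leaves of Abeliophyllum distichum, at 10 μg/mL. The sample labels give C57BL/6 mice of 6 to 8 weeks, whereas the paper's methods name male ICR mice, and genotype is not otherwise given. There were 2 libraries per condition, and nothing in the labels says whether the 2 came from separate mice or cultures, so the tests measure only the spread between these libraries, which may be technical.

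The receptors fall into classes by place and ligand. Tlr2 pairs with Tlr1 or Tlr6 at the cell surface and binds bacterial lipopeptides, and Tlr4 binds lipopolysaccharide there with the help of CD14 and MD-2. Tlr3, Tlr7, Tlr8, Tlr9 and Tlr13 lie in endosomes, where they meet nucleic acids: double-stranded RNA for Tlr3, single-stranded RNA for Tlr7, unmethylated CpG DNA for Tlr9 and bacterial ribosomal RNA for Tlr13. Most of them signal through the adaptor MyD88 to NF-κB. In bone, ligands of these receptors are known to hold back the differentiation of fresh precursors and to favor osteoclasts that are already committed.

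The libraries held between 29390197 and 34846381 mapped reads, as recovered from the whole-read steps of the RPKM values. The Rn45s entry, the ribosomal RNA precursor, took 4.97% and 6.83% of reads on genes in -R and 10.9% to 13.5% in the other 4 libraries. All 8 osteoclast markers were called higher in +R than in -R, against 6.58% of all tested genes. All 8 were called lower once LE was added, against 1.78%. Calcr, Oscar, Ctsk and Ocstamp averaged under 0.5 RPKM in -R and so were tested only because of their level in other conditions. Of 7 macrophage markers, 6 passed the test lower in +R. The 7 summed to 6458 to 7073 RPKM without RANKL, 2607 to 3351 with it and 3632 to 4046 with LE added. Lyz2 made up most of each sum, at 5317, 2132 and 3060 RPKM on average in -R, +R and R+LE. From +R to R+LE, Lyz2 did not pass (adjusted p = 0.191 in limma). In these bulk libraries, fewer cells of a type and less RNA per cell cannot be told apart. The 4 monocyte markers summed to 128 to 145 RPKM in -R, about as much as Tlr13, and to 9.81 or less elsewhere. The 6 neutrophil markers summed to 15.3 to 17.0 RPKM in -R, to 0.660 to 0.816 in +R and to 0.564 to 2.525 in R+LE. Of the 6 dendritic cell markers, Bst2 made up nearly all of the summed level, at 138.5, 34.5 and 31.1 RPKM on average in -R, +R and R+LE. Flt3, Cd209a and Siglech were at 3 reads or fewer in each +R and R+LE library, Xcr1 had at most 37 reads, and Zbtb46 averaged 0.0855, 0.828 and 0.146 RPKM. The 4 stromal markers summed to 15.3 RPKM or less, and the B cell markers to 1.55 to 1.94 in -R and to 0.124 or less elsewhere. No listed marker of T and NK cells (3 found of 4) or of mast cells and basophils (4) exceeded 3 reads in any library. With RANKL, 6 of 7 macrophage markers, all 3 tested monocyte markers, the 2 tested neutrophil markers and Bst2 passed lower, against 21.5% of all tested genes. That was the direction most of the receptors took. Ly6c2, Plac8 and S100a9 averaged under 0.5 RPKM in +R and so were tested only because of their level in other conditions. From +R to R+LE, 1 of the 7 macrophage markers (Mertk) and Plac8 of the monocyte markers passed higher, against 5.19% of all tested genes. Ccr2 passed lower, against 6.86%, and Bst2 did not pass (log2 difference -0.15, adjusted p = 0.616 in limma). The part of these cells in the results was not tested.

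RANKL lowered most of the receptors. A gene is said to have passed the test at an adjusted p-value below 0.05 (limma on log2(RPKM + 0.5), Benjamini-Hochberg over 11595 genes), and to be called when it also differed by at least 2-fold. Of the 10 genes, 6 were called lower in +R than in -R, where 8.92% of all tested genes were, and none was called higher, against 6.58%. Another 2 passed the test lower with a smaller difference, so that 8 passed lower against 21.5% of all genes, and none passed higher against 23.9%. The median log2 difference of the 10 was -1.18, and that of all tested genes was 0.05. LE raised most of the 10 over +R, Tlr2 included, which had not fallen with RANKL. Between R+LE and +R, 7 passed the test higher, against 5.19% of all genes, and 1 passed lower, against 6.86%. Only 1 of the 7 reached 2-fold and was called higher, where 1.46% of all genes were. The count of 7 depended on the libraries: it was 3 without +R replicate 2 or without R+LE replicate 1, 4 without either -R library, and 6 without +R replicate 1 or R+LE replicate 2, while Tlr4, Tlr8 and Tlr13 passed with any 1 library left out. All 10 genes passed the filter on low values, which asked for 0.5 RPKM on average across the 6 libraries. For any one gene, exchanging 2 libraries with 2 in a two-sided exact permutation test reaches p = 0.333 at best, so these calls rest on the spread that limma shares across genes.

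**Figure D1:**
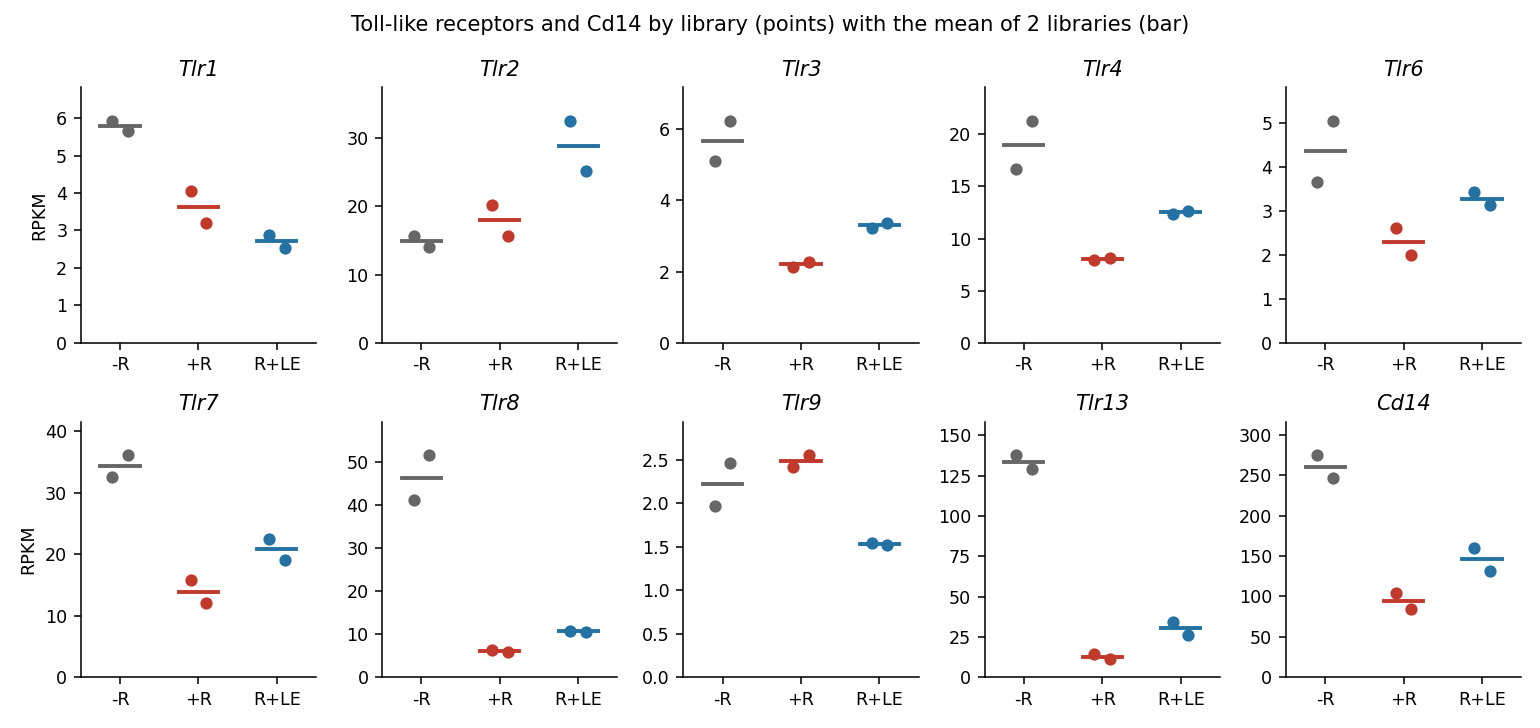
RPKM (y axis, linear from 0, a scale of its own in each panel) of the 9 Toll-like receptor genes and Cd14 in the 3 conditions (x axis). Each point is 1 library and each bar the mean of 2. In 7 of the panels the mean is highest in -R, lowest in +R and between them in R+LE, while Tlr1, Tlr2 and Tlr9 each follow another order.

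Tlr13, the receptor for bacterial ribosomal RNA, changed the most. It lies on chromosome X of mm10 from 106143275 to 106160493. It stood at 137.7 and 129.4 RPKM without RANKL, at 14.2 and 11.3 with RANKL, and at 34.5 and 26.3 when LE was given as well. The 3 conditions did not overlap, and the R+LE libraries lay nearer to +R than to -R. Tlr13 was 10.5-fold lower in +R than in -R (log2 difference -3.34, standard error 0.16, adjusted p = 3.16e-10 in limma) and 2.38-fold higher in R+LE than in +R (log2 difference 1.21, standard error 0.16, adjusted p = 0.000148). It stayed 4.40-fold below -R in R+LE (log2 difference -2.13, adjusted p = 9.42e-08 in limma). Between 1393 and 18075 reads per library lay on it.

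Tlr8, an endosomal relative of Tlr7, showed the next largest fall. Its gene is at chromosome X from 167241123 to 167264329, close to Tlr7. The -R libraries held 41.1 and 51.6 RPKM, the +R libraries 6.25 and 5.96, and the R+LE libraries 10.8 and 10.4. Both R+LE libraries were above both +R libraries and far below -R. RANKL gave a log2 difference of -2.82 (standard error 0.14, adjusted p = 5.37e-10 in limma), a 7.59-fold lower mean, against 0.75 from +R to R+LE (standard error 0.14, adjusted p = 0.00262). Tlr8 and Tlr13 were the 2 genes of the 10 still called lower when R+LE was set against -R, where 6.36% of all tested genes were, and Tlr8 was there 4.36-fold lower (adjusted p = 3.36e-08 in limma). Tlr8 and Tlr13 were also the 2 whose rise from +R to R+LE passed under each alternative tried.

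The 250 bases before the start sites of these 2 genes are shown with those of Tlr2 and Tlr9, the 2 receptors that did not fall with RANKL, so that the 2 kinds can be compared. The sequences are from RefSeq on GRCm38.p6, which is mm10, 5′ to 3′ on the strand of the gene, at chrX:106143025-106143274, plus strand, chrX:167264330-167264579, minus strand, chr3:83841609-83841858, minus strand, and chr9:106222348-106222597, plus strand. Capitals mark matches on either strand to 6 short motifs: the core of PU.1 sites (GAGGAA), part of the interferon-stimulated response element (GAAANNGAA), AP-1 (TGANTCA), part of the NF-κB site (GGNNTTTCC), the M-box (CACGTG) and the TATA box (TATAAA).
Tlr13: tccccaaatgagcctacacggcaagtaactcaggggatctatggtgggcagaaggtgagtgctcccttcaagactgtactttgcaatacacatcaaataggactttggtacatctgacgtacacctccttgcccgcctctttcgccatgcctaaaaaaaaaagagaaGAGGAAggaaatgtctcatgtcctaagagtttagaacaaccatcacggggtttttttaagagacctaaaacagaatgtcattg
Tlr8: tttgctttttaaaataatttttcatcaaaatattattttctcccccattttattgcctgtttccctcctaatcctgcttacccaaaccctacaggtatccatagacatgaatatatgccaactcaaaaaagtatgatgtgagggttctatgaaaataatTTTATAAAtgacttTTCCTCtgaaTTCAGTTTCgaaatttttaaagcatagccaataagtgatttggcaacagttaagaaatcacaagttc
Tlr2: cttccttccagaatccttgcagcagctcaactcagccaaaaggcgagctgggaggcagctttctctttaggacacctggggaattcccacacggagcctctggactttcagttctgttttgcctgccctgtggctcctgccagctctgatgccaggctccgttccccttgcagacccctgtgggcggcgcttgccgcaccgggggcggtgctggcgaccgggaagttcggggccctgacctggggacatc
Tlr9: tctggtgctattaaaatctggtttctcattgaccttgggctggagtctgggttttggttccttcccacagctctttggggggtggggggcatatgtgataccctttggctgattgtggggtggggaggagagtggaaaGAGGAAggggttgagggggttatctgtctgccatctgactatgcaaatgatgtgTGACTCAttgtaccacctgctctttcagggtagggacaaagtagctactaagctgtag

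The Tlr13 window held 1 PU.1 core, from 83 to 78 bases before the start, on the strand of the gene. PU.1, encoded by Spi1, is the transcription factor that sets up the macrophage and osteoclast lineage. The Tlr8 window held a PU.1 core and a response element match on the opposite strand, and a TATA box on each strand, which overlap each other. The Tlr9 window held a PU.1 core and an AP-1 match, and none of the 6 motifs, as spelled above, was in the Tlr2 window. The NF-κB letters used cover only some forms of that site. Other forms, such as GGGAATTCCC in the Tlr2 window, were not counted. RefSeq promoters were found for 7 of the 10 genes, with 2 start sites each for Tlr1 and Tlr6 and thus 9 windows. None was found for Tlr4 and Tlr7. Chromosome 18, where Cd14 lies, was left out of this search and of all windows counted here, so Cd14 could have none. A PU.1 core was in 4 of the 9 windows, against 23.3% of all 32851 windows of this length, and the response element was in 2, against 7.13%. AP-1, NF-κB and the M-box were in 1 window each, against 6.75%, 4.93% and 6.02% of all windows, and the TATA box was in 2, against 12.4%. The M-box match was in Tlr1 and the NF-κB match in Tlr3. GC content was 62.8% in the Tlr2 window and 31.2% in that of Tlr8, around a median of 52.4% over all windows. Letter matches of this kind are a description of the sequence and show no binding.

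Tlr7, the receptor for single-stranded RNA on chromosome X from 167304926 to 167330571, moved in the same order as Tlr8 but by less. The -R libraries held 32.5 and 36.1 RPKM, the +R libraries 15.7 and 12.1, and the R+LE libraries 22.5 and 19.1, with no overlap between conditions. RANKL gave a log2 difference of -1.28 (standard error 0.16, adjusted p = 8.02e-06 in limma), against 0.57 from +R to R+LE (adjusted p = 0.0266). The latter passed without +R replicate 1 or R+LE replicate 2 and missed the threshold without any of the other 4 libraries (adjusted p of 0.0687 to 0.310 in limma). In R+LE it remained 1.65-fold below -R (adjusted p = 0.00244 in limma, and 0.0522 without -R replicate 2). Among genes of plasmacytoid dendritic cells, which also use Tlr7, Siglech had up to 93 reads in -R and 3 or fewer in each +R and R+LE library, and Bst2 had 708 or more in every library. Their part in the level of Tlr7 was not tested.

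Tlr3, the receptor for double-stranded RNA on chromosome 8 from 45395665 to 45410380, was a gene of lower level. The -R libraries held 5.10 and 6.24 RPKM, the +R libraries 2.12 and 2.28, and the R+LE libraries 3.23 and 3.36. It was 2.58-fold lower in +R than in -R (log2 difference -1.19, standard error 0.15, adjusted p = 1.38e-05 in limma). From +R to R+LE it rose by 0.49 on the log2 scale, just past the test (adjusted p = 0.0490 in limma), and it missed the threshold with any 1 of the 6 libraries left out (adjusted p of 0.0629 to 0.225). Against -R it was still lower in R+LE (log2 difference -0.69, adjusted p = 0.00246 in limma). Of its 4729 exon bases, 123 are shared with an antisense transcript, Gm45542, on the opposite strand in GENCODE M21, and because reads were counted on both strands the 2 could not be told apart there.

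Tlr9, the DNA receptor on chromosome 9 from 106222598 to 106226876, was the endosomal receptor that did not pass the test with RANKL. It was low in each condition. The -R libraries held 1.97 and 2.47 RPKM, the +R libraries 2.42 and 2.56, and the R+LE libraries 1.54 and 1.52, on 161 to 298 reads per library. The -R and +R libraries overlapped (log2 difference 0.14, 95% interval -0.22 to 0.50, adjusted p = 0.525 in limma). It was the 1 gene of the 10 that passed lower in R+LE than in +R (log2 difference -0.55, standard error 0.17, adjusted p = 0.0446 in limma). Against -R the difference in R+LE did not pass (log2 difference -0.41, adjusted p = 0.0712 in limma). Leaving out any 1 of the 6 libraries left the difference of Tlr9 from +R to R+LE short of the threshold (log2 differences of -0.59 to -0.52, adjusted p of 0.0571 to 0.189 in limma).

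**Figure D2:**
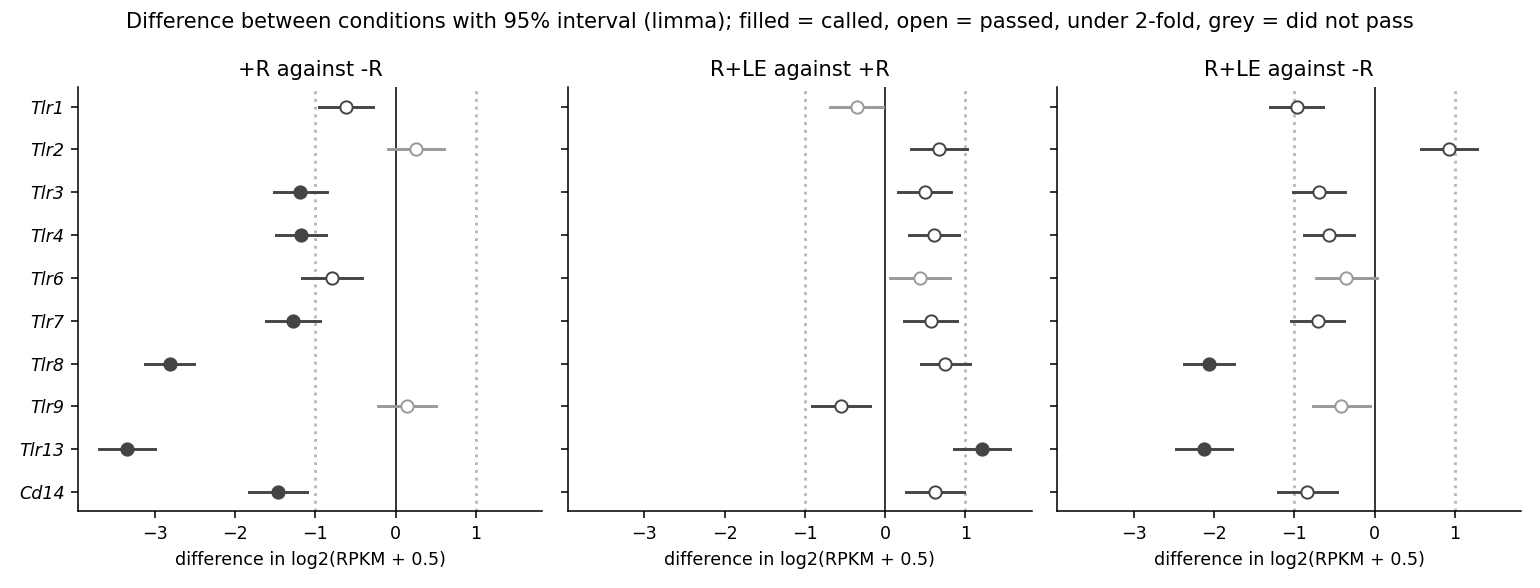
Difference between conditions in log2(RPKM + 0.5) (x axis) with its 95% interval from limma for each gene (rows), in the 3 comparisons of 2 libraries against 2. Filled points were called, open dark points passed the test under 2-fold, grey points did not pass, and dotted lines mark 2-fold. Tlr13 and Tlr8 lie farthest to the left in +R against -R, and Tlr2 is the 1 gene that passed to the right of 0 in R+LE against -R.

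At the cell surface, Tlr4 and its co-receptor Cd14 fell together. Tlr4, which lies on chromosome 4 from 66827551 to 66846581 and signals for lipopolysaccharide, was at 16.7 and 21.3 RPKM without RANKL, at 7.98 and 8.12 with it, and at 12.4 and 12.6 with LE added. Tlr4 differed by -1.18 on the log2 scale between +R and -R (standard error 0.15, adjusted p = 8.99e-06 in limma) and by 0.61 from +R to R+LE (standard error 0.15, adjusted p = 0.0120). The 3 conditions were apart for Tlr4, with the R+LE libraries between the others, and R+LE was below -R (log2 difference -0.57, adjusted p = 0.00663 in limma, and 0.107 without -R replicate 2). Cd14, which encodes the protein that hands lipopolysaccharide to Tlr4 and MD-2, is on chromosome 18 from 36725064 to 36726815 and was the most abundant of the 10 genes in each condition. The -R libraries held 274.7 and 246.2 RPKM, the +R libraries 104.7 and 84.5, and the R+LE libraries 160.2 and 131.8, again with no overlap. It was 2.75-fold lower in +R than in -R (log2 difference -1.46, standard error 0.17, adjusted p = 4.83e-06 in limma) and 1.54-fold higher in R+LE than in +R (log2 difference 0.62, adjusted p = 0.0252). That rise of Cd14 missed the threshold without either -R library, +R replicate 2 or R+LE replicate 1 (adjusted p of 0.0561 to 0.296 in limma). Against -R, Cd14 was lower in R+LE (log2 difference -0.84, adjusted p = 0.00134 in limma).

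Tlr2, which senses lipopeptides, went its own way. It lies on chromosome 3 from 83836272 to 83841608. Its level was 15.6 and 14.1 RPKM without RANKL, 20.2 and 15.7 with it, and 32.6 and 25.2 with LE added. The lower +R library was barely above the higher -R library, and both R+LE libraries were above the other 4. The difference with RANKL did not pass (log2 difference 0.26, 95% interval -0.09 to 0.60, adjusted p = 0.219 in limma). With LE it rose by 0.67 on the log2 scale over +R (standard error 0.16, adjusted p = 0.0128 in limma) and by 0.93 over -R (adjusted p = 0.000399). The rise over +R missed the threshold without +R replicate 2 or R+LE replicate 1 (adjusted p = 0.131 and 0.0690 in limma). It was the 1 gene of the 10 that passed higher in R+LE than in -R, where 15.3% of all genes did, while 7 passed lower, against 19.0%.

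Tlr1 and Tlr6, the partners of Tlr2, are neighbours on chromosome 5. Tlr1, from 64924680 to 64932699, had 5.94 and 5.65 RPKM without RANKL, 4.07 and 3.19 with it, and 2.89 and 2.54 with LE added, with no overlap. Its fall with RANKL passed but was under 2-fold (log2 difference -0.62, standard error 0.16, adjusted p = 0.00443 in limma), and without +R replicate 2 it no longer passed (log2 difference -0.46, adjusted p = 0.0705). From +R to R+LE its difference did not pass (log2 difference -0.35, adjusted p = 0.178 in limma), whereas R+LE against -R did (log2 difference -0.97, adjusted p = 0.000173). Tlr6, next to it from 64952030 to 64960096, had 3.67 and 5.06 RPKM without RANKL, 2.61 and 1.99 with it, and 3.43 and 3.13 with LE added. It fell with RANKL (log2 difference -0.79, standard error 0.18, adjusted p = 0.00184 in limma), and its difference from +R to R+LE, 0.44, did not pass (adjusted p = 0.136), nor did R+LE against -R (-0.35, adjusted p = 0.140). Tlr1 and Tlr6 are close copies in part: 8.85% of the stretches of 100 nt in the longest Tlr1 transcript of GENCODE M21 also occur in Tlr6, and 7.24% the other way, with an identical run of 229 nt. Reads of 100 bp from those stretches could have been split between them. No other pair of Toll-like receptor genes, Tlr5, Tlr11 and Tlr12 included, shared a stretch of that length.

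The order of the levels changed between conditions. In -R it ran Cd14, Tlr13, Tlr8, Tlr7, Tlr4, Tlr2, Tlr1, Tlr3, Tlr6 and Tlr9, and of these neighbours Tlr1 and Tlr3 overlapped. In +R Tlr2 was second at 18.0 ± 3.16 RPKM (SD, n = 2), and its libraries overlapped those of Tlr7, as did those of Tlr7 and Tlr13. Tlr9, Tlr6 and Tlr3 came last in +R, between 2.20 and 2.49 RPKM, and were not separate from their neighbours. In R+LE, Tlr13 at 30.4 ± 5.81 RPKM and Tlr2 at 28.9 ± 5.24 RPKM (SD, n = 2 each) overlapped, as did Tlr3 and Tlr6.

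Summed over the 9 receptors, the -R libraries held 260.2 and 271.9 RPKM, the +R libraries 75.6 and 63.3, and the R+LE libraries 124.0 and 104.1. RPKM is per kilobase of the 1 transcript used for each gene, so the order of different genes and their shares depend on its length. For Tlr4 that length was 7886 nt, while its longest transcript in GENCODE M21 has 4077 nt. For Tlr8 the 2 lengths were 4212 and 3431 nt, and for the other receptors they were closer, as for Tlr13 (4009 and 4060 nt). The order and shares under other lengths were not tested. Tlr13 alone made up 52.9% and 47.6% of this sum in -R and 18.8% and 17.9% in +R. The share of Tlr2 was 6.01% and 5.19% without RANKL, 26.7% and 24.9% with it, and 26.3% and 24.2% with LE added. The 5 endosomal receptors together held 83.9% and 83.0% of the sum without RANKL, 53.9% and 54.1% with it, and 58.6% and 58.3% with LE added, so that the 4 surface receptors went from a minor part to nearly equal weight. Each of these shares follows from the levels above and was not tested on its own.

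**Figure D3:**
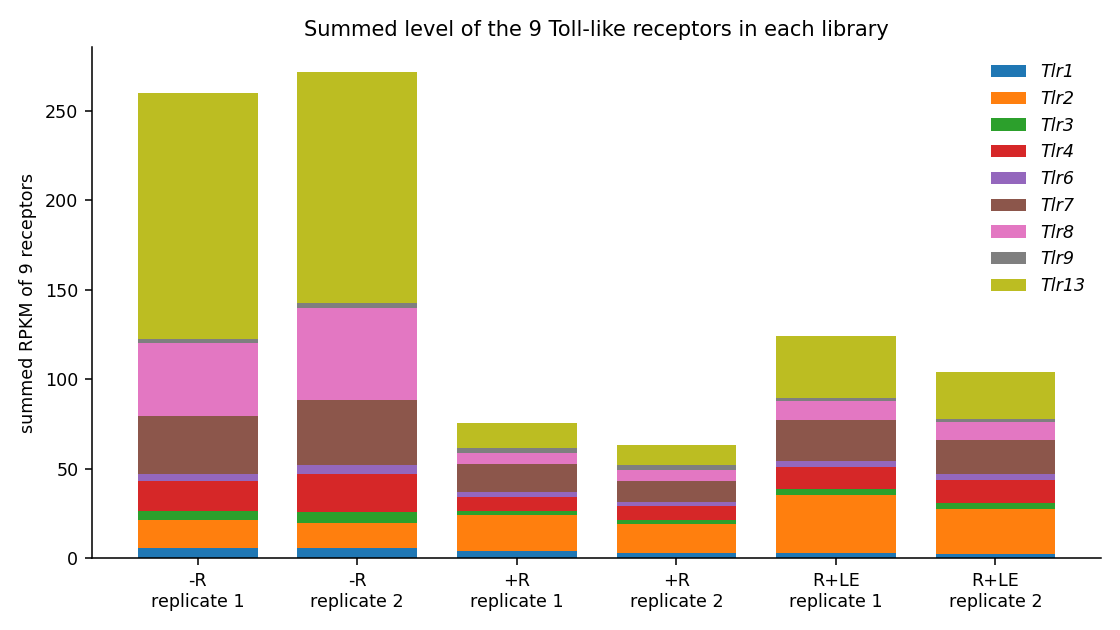
Summed RPKM of the 9 Toll-like receptor genes (y axis, from 0) in each of the 6 libraries (x axis), with 1 color per gene. The -R libraries stand at 260.2 and 271.9, mostly Tlr13 and Tlr8, the +R libraries at 75.6 and 63.3, and the R+LE libraries at 124.0 and 104.1.

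Of the 3 remaining mouse Toll-like receptor genes, Tlr11 and Tlr12 had at most 2 and 4 reads in any library. Tlr5, the flagellin receptor, had 0.362 and 0.530 RPKM without RANKL, 0.592 and 0.785 with it, and 1.25 and 1.45 with LE added. Its difference passed in R+LE against -R (log2 difference 0.97, adjusted p = 0.00248 in limma) and in neither of the other comparisons (adjusted p = 0.226 with RANKL and 0.0684 from +R to R+LE).

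Proteins that assist these receptors, bring ligands to them or are related to them were followed as a list of 6 genes, of which 5 passed the filter. All 5 were called lower in +R than in -R, against 8.92% of all genes, with a median log2 difference of -1.81. Cd36, a scavenger receptor that assists Tlr2, went from 504.1 to 23.4 RPKM (log2 difference -4.40, adjusted p = 4.12e-11 in limma). Cd180 and its partner Ly86, relatives of Tlr4 and MD-2, fell (log2 differences of -1.81 and -2.07), as did Lgals3, which encodes galectin-3 (-1.52). Ly96, which encodes MD-2 itself, went from 19.5 to 7.63 RPKM (log2 difference -1.30, adjusted p = 1.30e-05 in limma). With LE, Cd36 was called higher than in +R, at 121.5 RPKM (log2 difference 2.34, adjusted p = 6.89e-07 in limma), and the other 4 did not pass. Lbp, the lipopolysaccharide-binding protein gene, lay below the filter once averaged, with 5 to 49 reads per library.

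Of 11 genes that encode chaperones of the receptors or enzymes and transporters of endosomes, 7 were called lower in +R, against 8.92% of all genes. Of the 11, 8 passed lower, against 21.5%, and 1 passed higher, against 23.9%. Cnpy3 and Slc15a4 did not pass (adjusted p = 0.194 and 0.287 in limma). The cathepsin gene Ctsl, whose product cleaves endosomal receptors, went from 1283 to 113.5 RPKM, a log2 difference of -3.50. Slc15a3, an endosomal peptide transporter gene, went from 90.7 to 8.35 RPKM, and Lgmn, the asparagine endopeptidase gene, and Ctsb had log2 differences of -2.50 and -2.32. Unc93b1, whose product escorts the nucleic acid receptors to endosomes, fell from 127.0 to 63.7 RPKM, just short of 2-fold on the tested scale (log2 difference -0.997, adjusted p = 6.85e-05 in limma). Hsp90b1, the chaperone gp96 gene, was the 1 that passed higher (log2 difference 0.92, adjusted p = 0.000739 in limma). With LE, 3 of the 11 passed higher than in +R, against 5.19% of all genes. Of these Ctsl was called, from 113.5 to 300.0 RPKM (log2 difference 1.39, adjusted p = 0.000236 in limma).

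Below the receptors, the adaptors come first. Of 6 adaptor genes 5 were tested, and 2 passed lower in +R, against 21.5% of all genes. None passed from +R to R+LE in limma, where 1 had an unadjusted p-value under 0.05. Myd88, the shared adaptor, was 31.4 RPKM in -R and 27.7 in +R (log2 difference -0.18, adjusted p = 0.323 in limma). Pik3ap1, which links the receptors to PI3-kinase, was the 1 adaptor called, from 91.3 to 24.9 RPKM (log2 difference -1.85, adjusted p = 4.21e-08 in limma). Of 15 kinase and ubiquitin enzyme genes, 4 passed lower with RANKL, against 21.5% of all genes, 1 passed higher, against 23.9%, and 10 did not pass. Of those that passed, Traf3 was called higher (4.17 to 10.0 RPKM) and Ikbke was called lower (21.7 to 6.94 RPKM). Their median log2 difference was -0.09. Ikbke was also the 1 gene of the 15 that passed from +R to R+LE, where it was higher (log2 difference 0.79, adjusted p = 0.00192 in limma), against 5.19% of all genes.

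Among 11 tested of 12 negative regulators, 4 passed higher in +R, against 23.9% of all genes, and 3 passed lower, against 21.5%. Nfkbia and Tnfaip3, inhibitors that NF-κB itself induces, were called higher, at log2 differences of 1.80 and 1.44. Dusp1, a MAP kinase phosphatase gene, and Trim30a were called lower, at -3.00 and -1.50. With LE none was called by limma, where 4 had an unadjusted p-value under 0.05. Irak3 and Dusp1 passed higher, against 5.19% of all genes. Tnfaip3 passed lower (log2 difference -0.84, adjusted p = 0.00135 in limma), against 6.86%.

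Inflammatory genes that the receptors are known to induce were mostly low. Of 20 listed, 9 lay below the filter, Il12a and Ifnb1 had 0 reads in all 6 libraries, which allows up to 3 reads in each, and Il6 had at most 5. Of the 11 tested, 7 were called lower in +R, against 8.92% of all genes, and 2 higher, against 6.58%. Saa3, Ccl4, Ccl5 and Ccl3 had the largest falls on the log2(RPKM + 0.5) scale, at -3.86, -3.47, -3.40 and -2.85. By the ratio of means Cxcl2, at 3.38 and 0.151 RPKM, was 22.4-fold lower, more than Ccl4 (14.4-fold). Saa3, Il10, Cxcl1 and Cxcl2 averaged under 0.5 RPKM in +R and so were tested only because of their level in other conditions. Cxcl10 and Icam1 were called higher, at 2.34 and 1.48. With LE none was called in limma, while 3 had an unadjusted p-value under 0.05. Tnf (log2 difference 0.82, adjusted p = 0.00453 in limma) and Cxcl10 (0.58, adjusted p = 0.0124) passed higher, against 5.19% of all genes.

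Other sensors of the innate system were compared as the families closest in role. Of 12, 5 were called lower in +R, against 8.92% of all genes, and 9 passed lower, against 21.5%. None passed higher, against 23.9%, and the median log2 difference was -0.78. Zbp1, Nlrp3, Dhx58 and Tmem173 (the STING gene) had the largest called falls, at -2.99, -1.81, -1.63 and -1.17. With LE, Nlrp3 was called higher, from 4.40 to 9.60 RPKM (log2 difference 1.04), and Clec7a, the receptor for fungal glucan, passed lower (log2 difference -0.94, adjusted p = 0.000768 in limma). The median of the 12 from +R to R+LE was 0.15, against 0.59 for the 10 genes described here and -0.05 for all tested genes. These medians are given side by side, and the difference between the families was not tested.

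**Figure D4:**
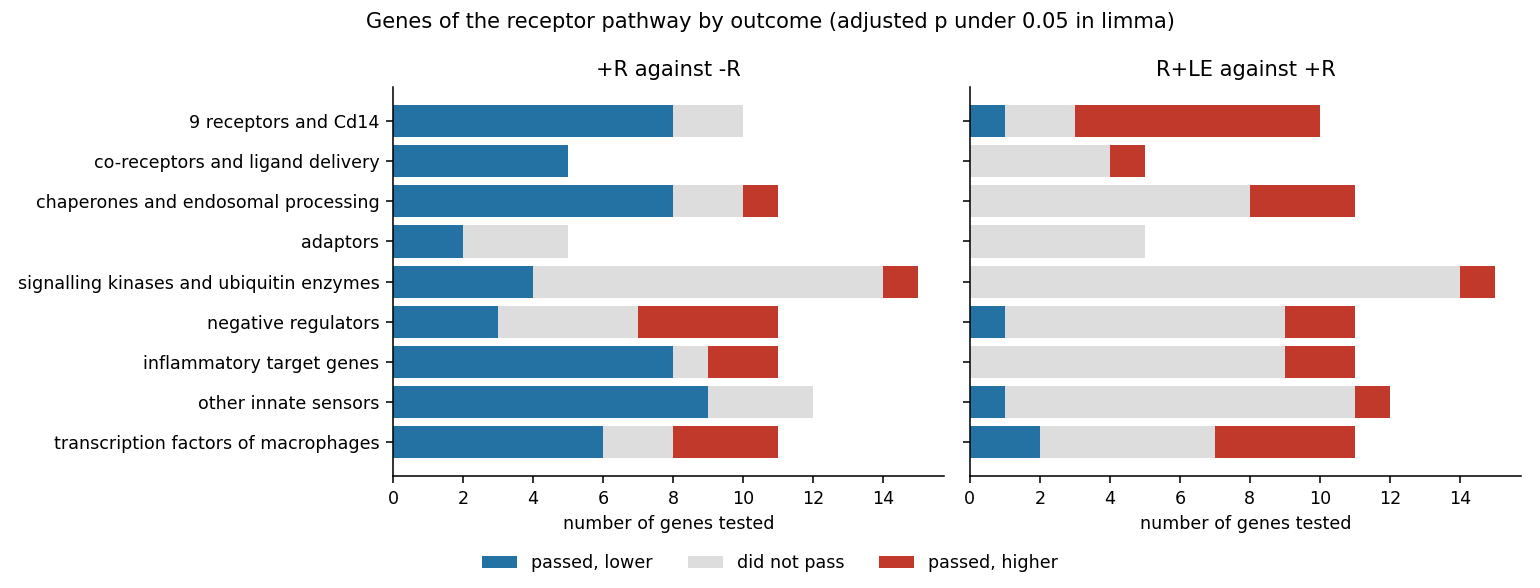
Number of tested genes (x axis) of each list that passed the test lower, did not pass or passed higher, for +R against -R and R+LE against +R. The 9 receptors and Cd14 show 8 lower and 2 not passing in the first, and 7 higher, 1 lower and 2 not passing in the second.

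Of 11 transcription factor genes of macrophages and osteoclasts, 6 were called lower in +R, against 8.92% of all genes. Irf8, Irf7 and Cebpa were among them, at log2 differences of -3.70, -3.46 and -2.19. Spi1, which encodes PU.1, averaged 197.1 RPKM without RANKL, 256.4 with it and 202.8 with LE added, and did not pass in any comparison (adjusted p = 0.0636 with RANKL, 0.214 from +R to R+LE and 0.871 between R+LE and -R, in limma). With LE, 4 of the 11 passed higher, against 5.19% of all genes, among them Cebpb and Irf8 (log2 differences of 0.69 and 0.61). Another 2 passed lower, against 6.86%: Nfatc1 and Mitf (log2 difference of Mitf -0.79, adjusted p = 0.00105 in limma). Nfatc1, the osteoclast factor, was the 1 gene of the list called higher with RANKL (3.10), against 6.58% of all genes. It was also the 1 called lower with LE (-1.31), where 1.78% of all genes were called lower.

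Likeness was measured as Pearson's r over the 6 libraries on log2(RPKM + 0.5), among 10466 genes that averaged 1 RPKM or more and had a transcript of at least 200 nt. With 2 libraries for each of 3 conditions, r reflects mainly the order and spacing of 3 means, and all genes share the same libraries. Fabp7, a fatty acid binding protein gene, and Sfxn5 were most like Tlr13 (r = 0.9993 and 0.9995), and Fabp7 went from 175.5 RPKM to 16.1 with RANKL and stood at 40.8 with LE added. Ticam2, which encodes the TRAM adaptor of Tlr4, and Zfp36l2 were most like Tlr8 (r = 0.9991 and 0.9989), although Ticam2 itself moved only from 5.81 to 4.31 RPKM with RANKL. Stat6 and Basp1 were most like Cd14 (r = 0.9993 and 0.9981). Such patterns were common, since 9.05% of the genes had r above 0.95 with Tlr8 and 7.96% with Tlr13. They were rarer for Tlr2, with 0.334% of genes, led by Crlf3 and by Txn1, the thioredoxin gene (267.3 RPKM without RANKL, 322.7 with it and 416.6 with LE added), and for Tlr9, with 0.210%, led by the linker histone gene Hist1h1c.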

How the data were processed

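Condition and replicate number of each library came from the sample labels. The authors sequenced 100 bp paired ends, aligned them to mm10 (TopHat in the paper, HISAT2 in the submitters' processing notes, which also list HOMER and DESeq2) and counted exon reads on both strands with HOMER, 1 transcript per gene. They deposited RPKM values, which are scaled to transcript length and to mapped reads, under column titles that say FPKM. Versions are not given in the sources used here.

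Depth was recovered from RPKM and transcript length: of the 5728 to 6757 values per library that could be checked (under 500 reads, with rounding of RPKM worth less than 0.05 reads), at least 99.98% lay within 0.02 reads of a whole number once rounding was allowed for. Of the gene symbols, 26 had been turned into dates and were restored from transcript identifiers. limma 3.58.1 in R 4.3.3 fitted log2(RPKM + 0.5) of all 6 libraries for the 11595 genes that averaged 0.5 RPKM or more, with a variance trend and Benjamini-Hochberg adjustment. The pseudocount makes fold changes of low genes too small. The text names the 10 genes, the called genes with the largest differences in each list (at most 4 a direction and comparison), the 2 most similar genes of a member, and overlapping genes. Ly96, Unc93b1, Hsp90b1, Myd88, Ticam2, Irak3, Clec7a, Spi1, Tlr5, Tlr11, Tlr12, Lbp, Il6, Il12a and Ifnb1, and genes named only as passing, were named after their values were seen. A gene that the rule would name is not reported here. Members and lists were chosen with earlier results of these data known. The 17 alternatives changed the pseudocount (0.1 or 1), the filter (none or 1 RPKM), the variance trend, the groups fitted and the scaling (centring on the median or quantile normalization), added the replicate number as a block, ran voom on the recovered reads, left Rn45s out of the depth, or left out 1 of the 6 libraries.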

Additional observations from a re-analysis of the deposited data

How the results depend on the processing

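Under all 17 alternatives 6 genes were called with RANKL and 1 from +R to R+LE, 2 or 3 were called in R+LE against -R, and no difference of the 10 genes changed sign. The count that passed higher from +R to R+LE, 7, was less firm. It was 8 with voom on the recovered reads, where Tlr6 passed too (adjusted p = 0.0406 in limma), 2 with no filter (18427 genes tested) and 4 with only the compared groups in the fit, and between 3 and 6 with 1 library left out. It was 4 without -R replicate 1 or 2 and 3 without +R replicate 2 or R+LE replicate 1, fits with fewer samples. Tlr8 (adjusted p at most 0.0478 in limma) and Tlr13 (at most 0.0293) were the 2 that passed each time, and Tlr2, Tlr3, Tlr4, Tlr7 and Cd14 each failed at least once. The count that passed lower, 1, was 0 with no filter, with only the compared groups and with centring on the median, and 0 with any 1 library left out. With 1 library left out, the lone library of its group is assumed to vary like the others. The cause of these losses was not tested.

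The labels do not say whether libraries with equal replicate numbers were prepared together. Across genes, the differences between replicates 1 and 2 correlated at -0.046 between -R and +R. The correlation was 0.249 between +R and R+LE and 0.107 between -R and R+LE. These values do not show whether the libraries were paired. With the replicate number as a block, 6, 1 and 2 of the 10 genes were called in the comparisons of RANKL with none, of LE with RANKL alone and of R+LE with -R, as were 1801, 389 and 1200 of all genes, and no call on the 10 changed. Leaving Rn45s out of the depth was added after the data were seen. Depth limits Tlr9 most, at 161 to 298 reads per library, and RPKM intervals of counting alone would not cover the spread between libraries.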
